A study of Oryza sativa with 2 samples.

Results

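The calcium and MAP kinase signalling genes of rice were examined in the developing collar, where the leaf blade bends away from its sheath. A probe set was taken as a member when it mapped to 1 gene whose symbol or synonym was CIPK, CBL, CDPK or CPK, MPK or MAPK, or CaM or CML followed by digits, with or without the prefix Os. This gave 92 of the 17905 genes named on the array, read by 113 of its 57194 probe sets (controls left out). By gene they were 24 CIPK, 7 CBL, 20 CPK, 15 MPK and 26 CaM/CML members. At heading, collars were taken from field-grown plants of antiOsLIC line 2 and of the wild type (WT), and RNA of 30 pooled collars of each was hybridised to 1 Affymetrix rice array. The antiOsLIC plants carry the full-length cDNA of OsLIC, a CCCH zinc finger gene, in antisense orientation behind the maize ubiquitin1 promoter, which is active in most tissues. All antiOsLIC collars were of 1 line, so that an effect of the insertion site cannot be told apart from that of the construct.

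Calcium ions act as a second messenger in plant cells, and their rises are read by proteins with EF-hand calcium-binding loops. Calmodulins (CaM) and calmodulin-like proteins (CML) bind calcium and then dock onto targets, while calcineurin B-like proteins (CBL) bind and activate CBL-interacting protein kinases (CIPK). Calcium-dependent protein kinases (CDPK or CPK) hold the sensor and the kinase in the same protein. MAP kinases (MPK) are the last step of a phosphorylation cascade and are switched on by MAPK kinases. These proteins are regulated to a large degree by calcium binding and phosphorylation, which an array of transcripts does not measure.

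The signal is the GCOS value of a probe set, scaled by the authors to an overall intensity of 500 per array. For ratios, 20 was the lowest signal used and dimmer ones were raised to it. A gene counted as measured when its brightest probe set reached 100 on either array. A difference was counted from 2-fold, the cut-off of the study's methods. OsLIC itself had a signal of 2069 on the antiOsLIC array and 219.8 on the WT array, 9.41-fold higher under the antisense label, and which strand its probes read was not checked. The arrays are therefore named by their labels, and every direction is that between the labelled arrays. The log2 signals of the 26697 probe sets past the minimum had a Pearson correlation of 0.937 across probe sets, which are not independent replicates, and the median log2 ratio of antiOsLIC over WT was -0.01. Poly-A control transcripts had a median ratio of 0.668 over 36 probe sets and hybridisation controls 1.11 over 27. Of 6 pairs of 3′ and 5′ probe sets of rice housekeeping transcripts, 5 had a 3′ to 5′ ratio that differed by at most 0.51 on the log2 scale between the arrays, and a glyceraldehyde-3-phosphate dehydrogenase pair differed by 1.97, with ratios of 18.0 in antiOsLIC and 4.61 in WT. LG1, which is required for the ligule and collar to form, had signals of 641.3 in antiOsLIC and 493.5 in WT. Of 14 MADS-box genes listed as markers of floral tissue, 5 were measured. At least 2-fold lower in antiOsLIC were 3 of these, MADS14, MADS15 and a locus named MADS2 (LOC4325001). MADS14 had 555 in antiOsLIC and 2510 in WT (log2 ratio -2.18), and its other probe sets were lower too. MADS15 had 53.7 in antiOsLIC and 412.8 in WT (-2.94). The summed signal of the 5 was 7875 in antiOsLIC and 13851 in WT. Most of both sums came from a locus named MADS2 (LOC4343851), at 6057 in antiOsLIC and 9773 in WT (log2 ratio -0.69). The other locus of that name, LOC4325001, had 30.5 in antiOsLIC and 155 in WT (-2.35). Both loci were listed by name only, and which of them is a floral organ gene was not checked. The sums are therefore no measure of floral tissue. Among the listed floral genes, MADS1, MADS6 and MADS13 were under the minimum on both arrays. MADS16, also a floral organ gene, was measured, with signals of 1179 in antiOsLIC and 1001 in WT (log2 ratio 0.24). Of the leaf blade genes, CAB2R, a chlorophyll-binding protein, had signals of 12844 in antiOsLIC and 25685 in WT, just under 2-fold lower, and was 2.34-fold lower by a dimmer probe set. The gene rbcS, the small subunit of Rubisco, had 25699 in antiOsLIC and 14898 in WT (log2 ratio 0.79, with 0.60 and -0.39 by its other probe sets past the minimum). Of 4 meristem homeobox genes, OSH71 and OSH43 were measured, with log2 ratios of -0.51 and 0.35, and OSH1 and OSH6 were under the minimum. In a pool of whole collars, fewer cells of a type and less RNA per cell cannot be told apart. The part of these values in the results below was not tested. With 1 array per label there was no spread between samples. No test was made, therefore, and no difference below has been checked in a replicate.

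Most of the signalling genes were measured in the collar, and most differed little between the arrays, as did most genes of the array. Of the 92 genes, 81 (88.0%) reached the minimum, against 82.3% of all genes. Of these 81 genes, 4 (4.94%) were at least 2-fold higher in antiOsLIC, where 3.73% of all 14742 measured genes were. At least 2-fold lower in antiOsLIC were 3 (3.70%), where 2.85% of all genes were. Both shares lie near those of all genes, so the counts alone do not set these families apart. The 4 higher genes were CIPK14, CML14, CML4 and CML31, and the 3 lower genes were CIPK12, CIPK10 and CPK12. CML14 reached the minimum in antiOsLIC only, and CPK12 in WT only, each on the array where it was higher. With a minimum of 100 on both arrays, 3 of 75 members were at least 2-fold higher and 2 at least 2-fold lower. Of all genes 2.32% were higher and 1.85% lower by that rule. The log2 ratio lay between -0.5 and 0.5 for 61 of the 81 genes and was larger in size for 24.7%, beside 22.1% of all genes. Its median was 0.04, beside -0.01 over all genes. By probe sets, 4 of 96 past the minimum were at least 2-fold higher (4.17%, with 5.28% over all probe sets) and 8 were at least 2-fold lower (8.33%, with 4.64% over all probe sets). The larger count of lower probe sets came in part from CIPK10, of which 3 probe sets were counted.

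**Figure D1:**
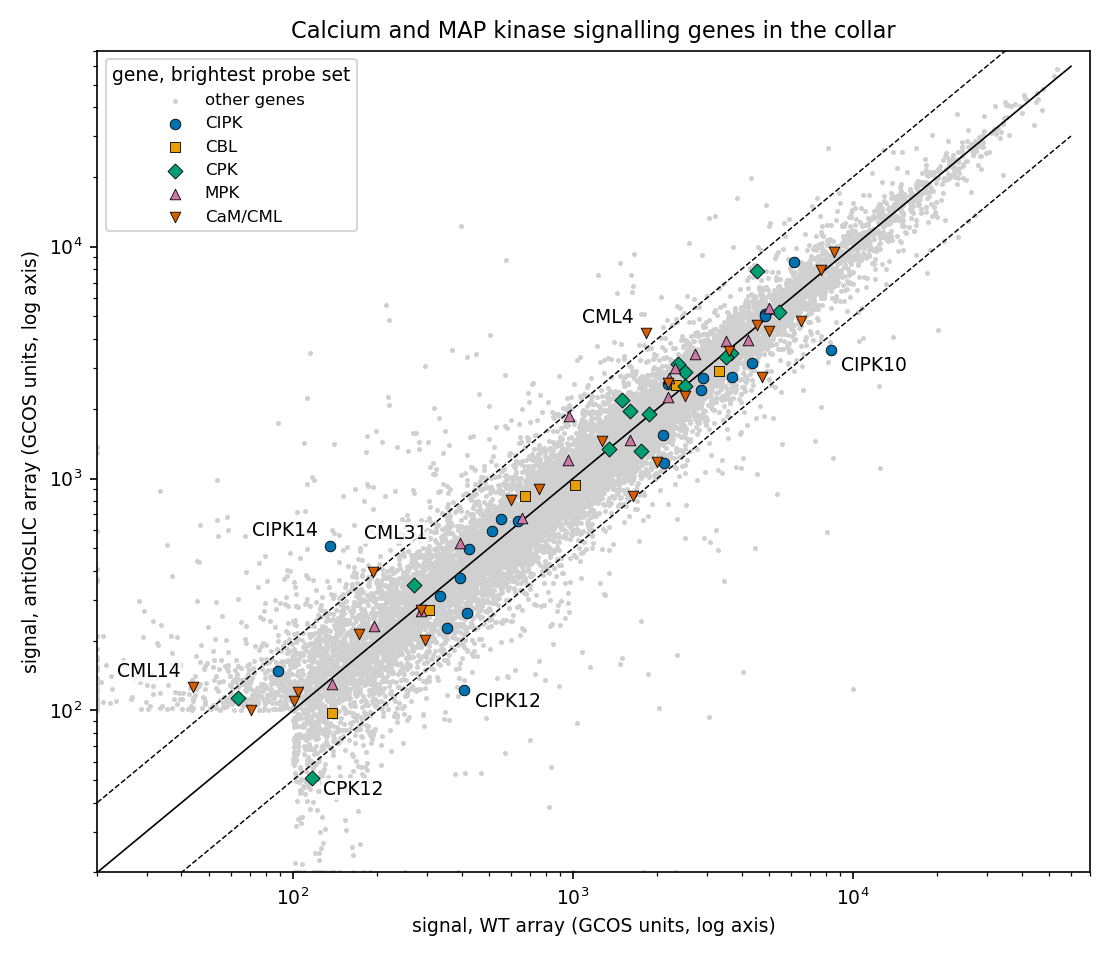
Signal of each measured gene (brightest probe set) on the antiOsLIC array, vertical axis, and on the WT array, horizontal axis, both on log axes. Coloured symbols are the 81 members by family and grey points the other genes, the solid line marks equal signals and the dashed lines 2-fold differences. CIPK14, CML14, CML4 and CML31 lie above the upper dashed line, and CIPK10, CIPK12 and CPK12 below the lower one.

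The families differed in how far their members spread around an equal signal. By the brightest probe sets the CIPK genes spread widest, with log2 ratios from -1.74 to 1.91. Their interquartile range was 0.690, where that of all genes was 0.469. The CaM/CML genes followed, from -0.95 to 1.52. The CBL genes covered the narrowest range, from -0.51 to 0.32, and the MPK genes lay between -0.12 and 0.94, with none past 2-fold in either family. A range grows with the number of genes, and 6 CBL genes were measured beside 22 CIPK and 23 CaM/CML genes. By the standard deviation the MPK genes (0.277) were as narrow as the CBL genes (0.285). Of the 15 MPK genes, 11 had the higher signal in antiOsLIC, where 7228 of all 14742 genes did, and the family median was 0.16, the highest of the 5 families. The 11 include MPK8 by its brightest probe set (0.12), while its dimmer one ran the other way (-1.01). The CaM/CML median was 0.12, the CPK median 0.02, the CIPK median -0.10 and the CBL median -0.15. The CaM/CML median was 0.01 with a signal minimum of 200 or 500 or as the mean over probe sets, so its place above the CPK median depends on the setting. The gaps between these medians were not tested.

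**Figure D2:**
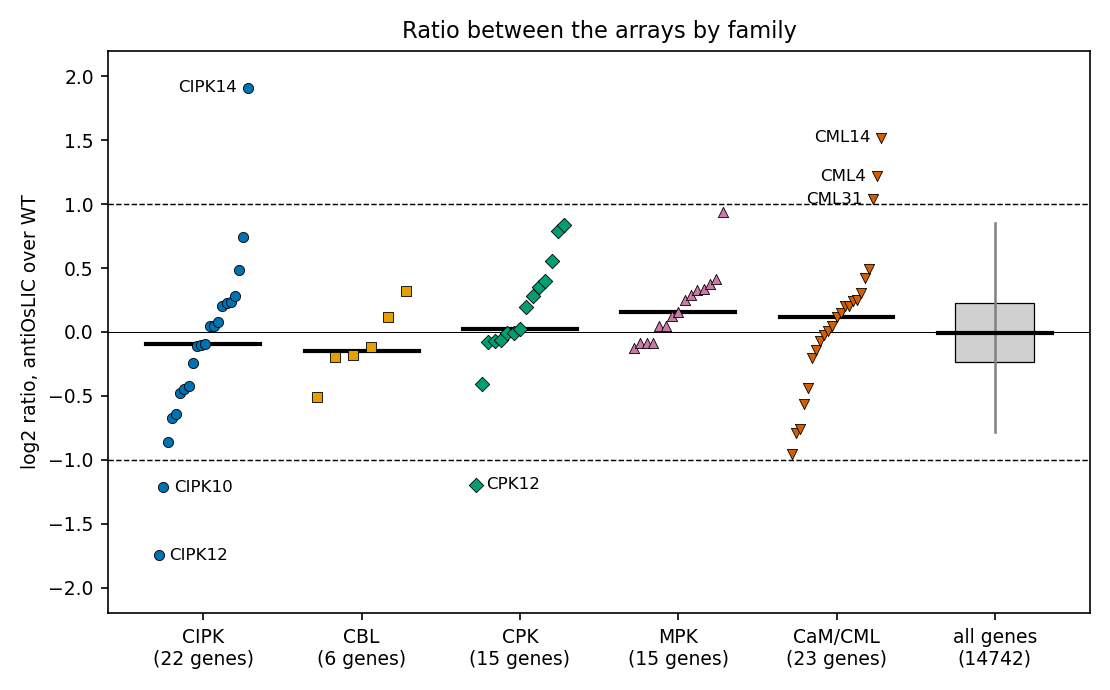
Log2 ratio of antiOsLIC over WT for each measured gene, by family. Thick lines are medians, dashed lines mark 2-fold, and the box for all 14742 genes spans the middle 50% with a line from the 5th to the 95th percentile (-0.78 to 0.85). The CIPK genes reach furthest in both directions, and 14 of the 15 MPK genes lie between -0.12 and 0.41, with MPK5 apart at 0.94.

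Most genes of every family were measured in collar RNA. All 15 MPK genes were measured, as were 22 of 24 CIPK, 6 of 7 CBL, 15 of 20 CPK and 23 of 26 CaM/CML genes. A signal of 1000 on either array was reached by 49 members (53.3%), beside 42.9% of all genes. By family this was 10 of 15 MPK, 12 of 20 CPK, 13 of 26 CaM/CML, 11 of 24 CIPK and 3 of 7 CBL genes. The median signal of measured CPK genes was 2189 in antiOsLIC and 1863 in WT, and that of MPK genes 1858 in antiOsLIC and 1601 in WT. Measured CIPK genes had medians of 917 in antiOsLIC and 1364 in WT, CaM/CML genes 1178 in antiOsLIC and 1635 in WT, and CBL genes 890.5 in antiOsLIC and 846.1 in WT. The median on each array can fall on a different gene, so a gap between the 2 is not a family ratio. The median log2 ratio was -0.10 for CIPK, 0.12 for CaM/CML and -0.15 for CBL genes. Of the 23 CaM/CML genes, 14 were higher in antiOsLIC. Signals of different probe sets also depend on how strongly the probes bind, so these median signals describe the families on this array and give no order of transcript abundance.

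Among the CIPK kinases, the catalytic partners of the CBL sensors, CIPK14 (LOC4351307) had the largest log2 ratio of all members. Its signal was 511.7 in antiOsLIC and 136.1 in WT, 3.76-fold higher (log2 ratio 1.91). CIPK14 is known in cultured rice cells for a role in defence responses to fungal elicitors, together with its near-identical copy CIPK15, and whether the probe set also reads that copy was not checked. CIPK12 (LOC4325613), known for drought tolerance when overexpressed in rice, had signals of 122 in antiOsLIC and 409 in WT, 3.35-fold lower (log2 ratio -1.74). Its second probe set was under the minimum, with signals of 39.9 in antiOsLIC and 90.9 in WT, and ran the same way. By the brightest probe sets, the gap between CIPK14 and CIPK12 was thus the widest inside any family, with opposite directions. With _s_at and _x_at probe sets left out, CML14 at 1.52 and CML5 at -2.48 lay further apart.

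CIPK10 (LOC4332786) had bright signals and was the member with the most probe sets past the minimum. Its brightest probe set had signals of 3590 in antiOsLIC and 8324 in WT, 2.32-fold lower (log2 ratio -1.21). The other 3 probe sets had signals of 3530, 1767 and 1047 in antiOsLIC, beside 7954, 4627 and 1588 in WT, in the same order. All 4 were lower in antiOsLIC, with log2 ratios from -1.39 to -0.60, and 3 of them were past 2-fold. They read 1 gene in the same 2 RNA pools and are therefore repeated readings of it, not replicates of the condition.

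Several other CIPK genes were lower in antiOsLIC without passing 2-fold by their brightest probe set. CIPK19 had signals of 1163 in antiOsLIC and 2115 in WT (log2 ratio -0.86), CIPK18 262.1 in antiOsLIC and 417 in WT (-0.67), and CIPK5 227 in antiOsLIC and 354.5 in WT (-0.64). CIPK7 had signals of 3137 in antiOsLIC and 4373 in WT (-0.48), while its dimmer probe set, at 445 in antiOsLIC and 1096 in WT, was past 2-fold (-1.30). On the other side of 0 were CIPK6, with a dim signal of 148 in antiOsLIC and 88.4 in WT (0.74), and CIPK1, with a bright signal of 8613 in antiOsLIC and 6151 in WT (0.49). CIPK2, CIPK32 and CIPK16 were nearly equal, with log2 ratios of 0.07, 0.04 and 0.05. Over the 22 measured CIPK genes, 10 had the higher signal in antiOsLIC and 12 in WT.

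CBL proteins are calcium sensors with no catalytic part of their own, and no CBL gene was past 2-fold (0 of 6). CBL6 had signals of 2901 in antiOsLIC and 3322 in WT (log2 ratio -0.20), and CBL3 had 2532 in antiOsLIC and 2331 in WT (0.12). CBL10 had 840.3 in antiOsLIC and 673 in WT (0.32), and CBL2 had 941 in antiOsLIC and 1019 in WT (-0.12). The largest difference in the family was that of the dim CBL4, at 97.2 in antiOsLIC and 138 in WT (-0.51). CBL4 and CIPK24, the rice counterparts of Arabidopsis SOS3 and SOS2, form the pair that drives sodium export under salt, and both were lower in antiOsLIC by less than 2-fold. CIPK24 had signals of 2752 in antiOsLIC and 3681 in WT (-0.42). CIPK23, which activates the potassium channel AKT1 in rice roots, had log2 ratios of 0.22 by its brighter and 0.95 by its dimmer probe set, the second with signals of 822 in antiOsLIC and 426.2 in WT. For CBL9, whose 2 probe sets are of the less specific suffix _x_at, the log2 ratios were -0.18 and 0.57, and no direction was shared.

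Of 15 measured CPK genes, CPK12 was past 2-fold, and it was lower in antiOsLIC. CPK12 (LOC4336653), known in rice for raising salt tolerance, had dim signals of 51.1 in antiOsLIC and 117 in WT (log2 ratio -1.20), read by a probe set of the suffix _s_at that can bind related transcripts. With 50 added to both signals its log2 ratio was -0.72, under the 2-fold limit. CPK13 had the largest log2 ratio of the CPK genes with signals over 1000, at 7843 in antiOsLIC and 4540 in WT (0.79), and its second probe set had 1667 in antiOsLIC and 1075 in WT (0.63). CPK13, also named OsCDPK7 and OsCDPK13, is known for raising tolerance to cold and salt in rice, and both of its probe sets stayed under 2-fold. CPK9 was close to the minimum, with 113 in antiOsLIC and 63.5 in WT (0.84). CPK18, which phosphorylates MPK5 in rice, had 2189 in antiOsLIC and 1491 in WT (0.55), and its dimmer probe set had nearly the same log2 ratio (0.59), at 142 in antiOsLIC and 94.3 in WT. CPK4 had 3120 in antiOsLIC and 2371 in WT (0.40), and CPK20 had 1315 in antiOsLIC and 1743 in WT (-0.41). A block of 7 bright CPK genes was nearly level between the arrays. CPK19, CPK7, CPK24, CPK8, CPK17, CPK3 and CPK1 had log2 ratios between -0.08 and 0.20, and CPK19 had signals of 5234 in antiOsLIC and 5459 in WT.

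The MAP kinases were close to level as a family, with MPK5 (LOC4332475) apart from the rest. MPK5, also named OsMAPK5 and OsMPK3, is induced by pathogens and abiotic stress in rice, and had signals of 1858 in antiOsLIC and 968 in WT, a ratio of 1.92 (log2 ratio 0.94) that lies just under the 2-fold limit. The next highest MPK genes were MPK15 (525.6 in antiOsLIC and 395.3 in WT, log2 ratio 0.41) and MPK4 (3002 in antiOsLIC and 2310 in WT, 0.38). MPK1, also named OsMAPK6, which acts in grain size and in elicitor responses of rice, had 3445 in antiOsLIC and 2724 in WT (0.34). The gap between MPK5 and MPK15 was 0.53 on the log2 scale, as wide as the range of 0.53 that the other 14 genes covered in all. MPK3 had signals of 3933 in antiOsLIC and 3525 in WT (0.16), MPK14 had 3954 in antiOsLIC and 4200 in WT (-0.09), and MPK7 had 2249 in antiOsLIC and 2175 in WT (0.05). The lowest was MPK11, at 1471 in antiOsLIC and 1601 in WT (-0.12). MPK8 had 5457 in antiOsLIC and 5016 in WT by its bright _x_at probe set (0.12), but 63.3 in antiOsLIC and 127.8 in WT by a dim one (-1.01), so its probe sets disagreed. Both probe sets of MPK10 gave the same small difference (0.32 and 0.29).

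The calmodulins were bright and level on the 2 arrays, whereas 7 of the 20 measured calmodulin-like genes had a log2 ratio of at least 0.5 in size (beside 22.1% of all genes). CAM1 had signals of 9468 in antiOsLIC and 8552 in WT, CAM3 had 7931 in antiOsLIC and 7694 in WT, and CAM2 had 4572 in antiOsLIC and 4547 in WT. Their log2 ratios were 0.15, 0.04 and 0.01. Plant calmodulin genes encode nearly the same protein, and whether a probe set also reads the transcript of another calmodulin gene was not checked. The annotation gives several calmodulin names to the locus of CAM1. Of these CML genes, 3 were at least 2-fold higher in antiOsLIC and 0 at least 2-fold lower by the brightest probe set, where 3.73% and 2.85% of all genes were. Of the 3, CML14 reached the minimum only on the antiOsLIC array, where it was higher. With _s_at and _x_at probe sets left out, CML4 was under 2-fold and CML5 was past it in the other direction. CML4 (LOC4334072) was the bright case, with signals of 4228 in antiOsLIC and 1817 in WT, 2.33-fold higher (log2 ratio 1.22). This probe set has the suffix _s_at, and a second, of the suffix _at, had 2743 in antiOsLIC and 1421 in WT (0.95), just under 2-fold. One more, under the minimum, had 80.7 in antiOsLIC and 35.8 in WT (1.17). All 3 probe sets of CML4 were thus higher in antiOsLIC by a similar ratio.

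The other 2 CML genes past 2-fold rested on dimmer signals. CML14 (LOC4339701) had signals of 126 in antiOsLIC and 44.0 in WT, 2.87-fold higher, and the log2 ratio was 1.52, or 0.91 when 50 was added to both signals. CML31 (LOC4325408) had 395.3 in antiOsLIC and 192.5 in WT, 2.05-fold higher (log2 ratio 1.04, or 0.88 when 50 was added), close to the limit. At the opposite end, CML18 had 844.0 in antiOsLIC and 1635 in WT (-0.95), CML1 had 2728 in antiOsLIC and 4718 in WT (-0.79), and CML10 had 1178 in antiOsLIC and 1997 in WT (-0.76). CML1 corresponds to OsCAM61, a calmodulin with a long extension that carries a prenylation site. CML29 was brighter and differed less, at 4785 in antiOsLIC and 6493 in WT (-0.44), and CML7, CML8, CML13 and CML16 lay between -0.20 and 0.24. CML5 could not be given a direction. Its _s_at probe set had 100.2 in antiOsLIC and 71.1 in WT (0.50). The other, of the suffix _at, had 13.03 in antiOsLIC and 111.6 in WT, a log2 ratio of -2.48 with the antiOsLIC signal raised to 20. How specific either probe set is was not checked.

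**Figure D3:**
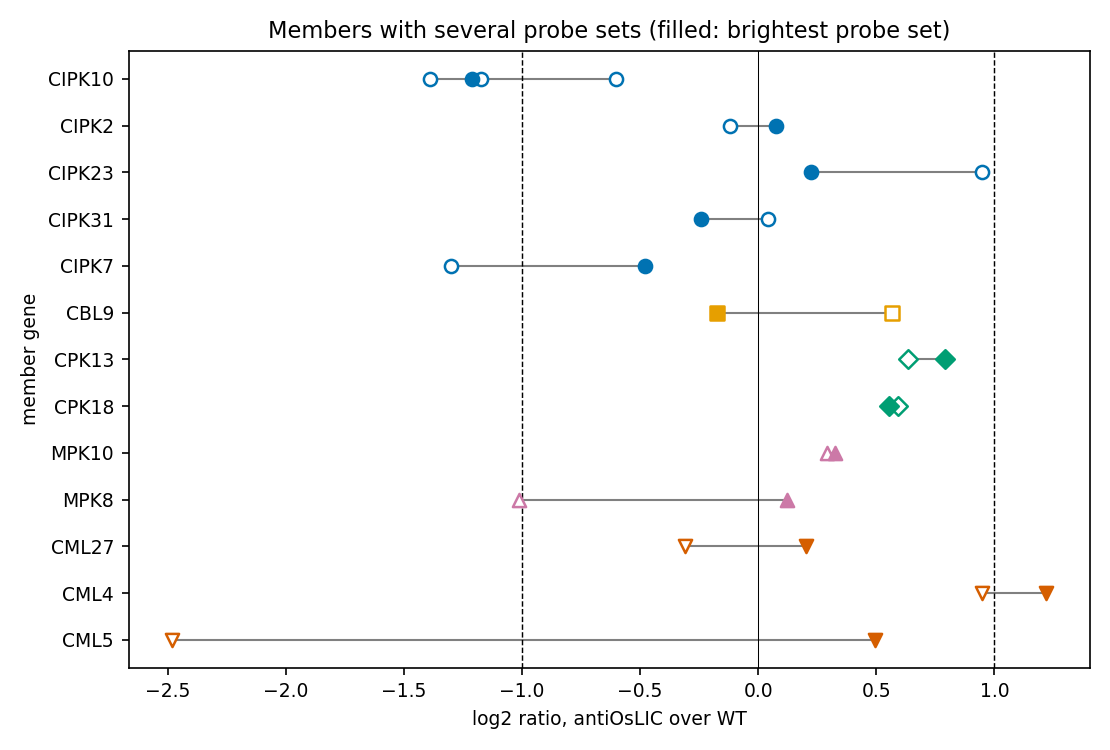
Log2 ratio of antiOsLIC over WT for every probe set past the minimum of the 13 members with several such probe sets. Filled symbols are the brightest probe set of the gene, open symbols the others, and dashed lines mark 2-fold. The probe sets of CIPK10, CPK13, CPK18, MPK10 and CML4 lie on the same side of 0, and those of MPK8 and CML5 are more than 1 apart.

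Agreement between probe sets of a gene could be read for the 13 members of which several probe sets reached the minimum. All probe sets lay on the same side of 0 for 7 of them, CIPK10, CIPK7, CIPK23, CPK13, CPK18, CML4 and MPK10. In MPK8 and CML5 they were over 1 apart on the log2 scale. For the other 68 measured members the value rests on 1 probe set past the minimum, and this includes CIPK14, CIPK12, CPK12, CML14 and CML31. Of the 81 measured genes, 12 were represented by a probe set of the suffix _s_at or _x_at.

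The 11 members under the minimum had signals of at most 55.6 in antiOsLIC and 60.4 in WT, and no ratio was read from them. They were CBL5, CIPK20, CIPK30, CML24, CML28, CML32, CPK2, CPK6, CPK21, CPK22 and CPK29. CPK21, known in rice for responses to abscisic acid and salt, had 21.6 in antiOsLIC and 5.94 in WT. CPK22 had 48.3 in antiOsLIC and 6.63 in WT, and CPK29 had 2.51 in antiOsLIC and 29.7 in WT. By family these were 5 of 20 CPK genes, 3 of 26 CaM/CML, 2 of 24 CIPK, 1 of 7 CBL and 0 of 15 MPK genes.

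Some members lie side by side in the genome, and 3 such pairs could be compared. By the RefSeq gene order of Oryza sativa Japonica Group, no other coding gene lies between CIPK29 and CIPK2, between CML9 and CAM2, between CIPK32 and CML3, or between CIPK30 and CIPK12. CML9 had a log2 ratio of -0.56 and its neighbour CAM2 one of 0.01. CIPK29 and CIPK2 had 0.23 and 0.07, and CIPK32 and CML3 had 0.04 and 0.20, so that both members of these pairs were nearly level. The probe sets of CIPK32 and the dim CML3 share the stem of their names on the array. Whether each reads only its own gene was not checked. CIPK30, the neighbour of CIPK12, was under the minimum with 39.95 in antiOsLIC and 60.4 in WT.

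Genes of related signalling and transport families were read from 7 lists of names, and not all of them act directly before or after a member. Together these lists matched 48 genes, of which 44 were measured, 1 was at least 2-fold higher in antiOsLIC and 1 was at least 2-fold lower. Over all genes the shares were 3.73% higher and 2.85% lower, so these counts do not set the lists apart. Upstream of the MAP kinases, 2 genes carry the name MEK1. The gene also named MKK1 had signals of 4198 in antiOsLIC and 2914 in WT (log2 ratio 0.53). The other is also named WNK1, a kinase family outside the MAPK kinases, and had 2603 in antiOsLIC and 2645 in WT (-0.02). No gene matched the list of MAPKK kinases. Among 10 measured calcium channels and transporters, ACA5, of the calcium pumps that clear calcium from the cytosol, had 874 in antiOsLIC and 1774 in WT (-1.02). The exchanger gene CAX2 had 606 in antiOsLIC and 342.5 in WT (0.82), and the channel gene TPC1 had 1757 in antiOsLIC and 1866 in WT (-0.09). The list's median was 0.00.

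HAK1, a high-affinity potassium transporter, was the higher of the 2 genes past the limit. Its brighter probe set had signals of 3240 in antiOsLIC and 1034 in WT, 3.13-fold higher (log2 ratio 1.65), and its other one had 1362 in antiOsLIC and 553.5 in WT (1.30). It was listed with AKT1 and the other HAK genes because CBL-CIPK pairs act on some potassium carriers in plants. AKT1 had 1939 in antiOsLIC and 1387 in WT (0.48), and the median of the 20 measured genes of this list was 0.07. The calcium- and calmodulin-dependent kinase CCaMK, needed for root symbiosis, had 1017 in antiOsLIC and 858 in WT (0.24). The NADPH oxidase gene RBOHB had a bright and level signal of 13673 in antiOsLIC and 12910 in WT (0.08). None of the 10 SnRK2 kinases, which act in abscisic acid and osmotic stress signalling, was past 2-fold, and their log2 ratios lay between -0.44 and 0.16.

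**Figure D4:**
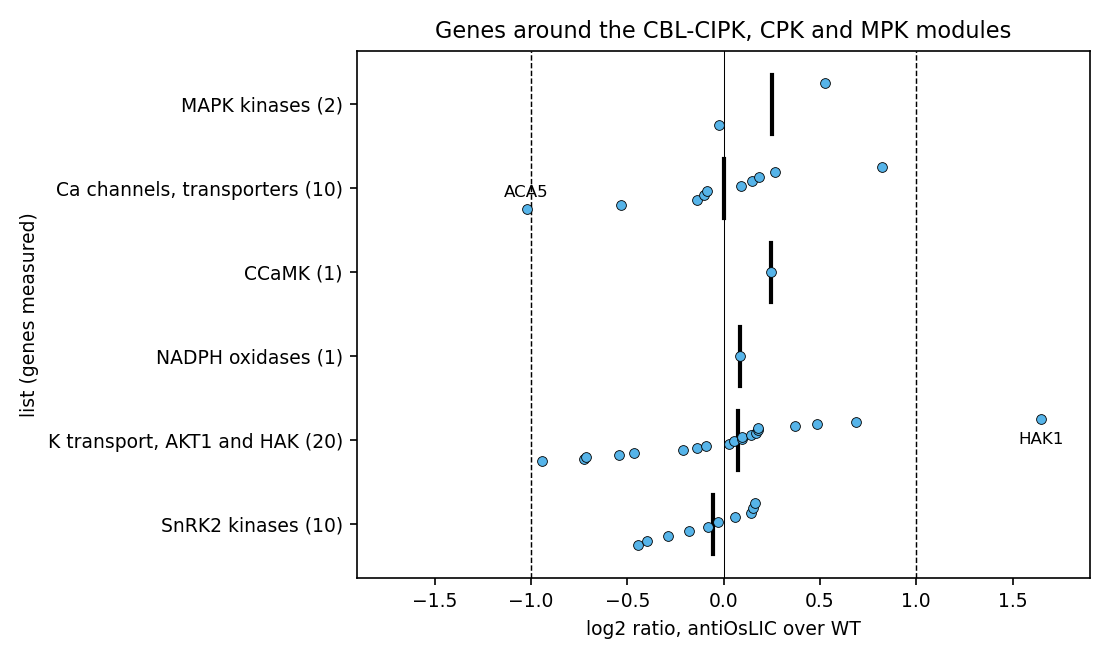
Log2 ratio of antiOsLIC over WT for the measured genes of the lists around the members, 1 point per gene by its brightest probe set, with the number of genes in brackets. Thick lines are medians and dashed lines mark 2-fold. HAK1 at 1.65 and ACA5 at -1.02 are the 2 points past 2-fold.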

How the data were processed

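Developing collars of antiOsLIC and WT rice were measured on 1 GeneChip Rice Genome Array each. The authors used GCOS (its version is not given in the sources used here) to compute a linear signal intensity for every probe set, and scaled each array to 500. The mean of the deposited intensity values without the highest and lowest 2% was checked and is 500.1 on both arrays. All computing was done in Python 3.11.15 with pandas 2.3.3 and statsmodels 0.14.6 (loess).

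Intensities were floored at 20, and the log2 ratio of antiOsLIC over WT was taken with no further normalization. The minimum was 100 on the brighter array and the threshold 2-fold. For genes with several probe sets, the one of highest mean log2 intensity was used. Leaving out controls, 22436 probe sets have 1 annotated gene symbol, 95 have several and 34663 have none. Synonyms came from the RefSeq gene table (ASM3414082v1) through the gene ID, which held all 92 member genes. Of these, 5 matched by symbol and 87 by synonym only. Where a gene has several names, 1 is used here and others are given beside it.

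Neither array has a replicate or a partner, so no test was made. The named genes are the members past 2-fold, the 3 with the highest mean signal and the 2 with the largest ratio of each family, members whose probe sets lie over 1 apart, and genes of the 7 lists past 2-fold. Other members were named after their values were seen. Members and lists were chosen with earlier results of these data known. Alternatives were median centring, quantile normalization, loess (fraction 0.4), a pseudocount of 50, other signal minimums, no _x_at or _s_at probe sets, the mean over probe sets, a 3-fold threshold and names with a hyphen. Applying the suffix and mean alternatives to single named genes was chosen after seeing the data. The computing of ratios and calls was checked on simulated data with little noise and larger changes at brighter signals. That check does not measure how reliable the calls here are.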

Additional observations from a re-analysis of the deposited data

How the results depend on the processing

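No paired analysis was possible because each label has 1 array. Of the 81 members, 4 were at least 2-fold higher in antiOsLIC and 3 at least 2-fold lower. With a pseudocount of 50 the higher count was 2, without CML14 and CML31. With a signal minimum of 500 it was 2 and the lower count 1, over fewer genes. With a 3-fold threshold each count was 1. With a minimum of 100 on both arrays the counts were 3 higher and 2 lower of 75 genes, without CML14 and CPK12. The other alternatives moved neither count by over 1.5 times. The median log2 ratio of all members stayed between 0.02 and 0.06 under every alternative run, and the MPK median between 0.16 and 0.22. The CIPK median ranged from -0.11 to 0.04 and the CBL median from -0.18 to 0.00, so their sign depends on the setting. The CaM/CML median ranged from 0.01 to 0.13 and the CPK median from 0.01 to 0.04. The hyphenated names added no gene. MPK8 and CML5 had log2 ratios of -1.01 and -2.48 with _x_at and _s_at probe sets left out, and -0.45 and -0.99 as the mean over their probe sets, beside 0.12 and 0.50 by the brightest one. Ratios of genes with a signal near 100 rest on dim spots.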
